A study of Mus musculus with 24 samples.

Results

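The progestin and adipoQ receptor family was followed through the white fat of mice that lack the transcription factor FoxO1 in adipose tissue. Its members were taken by name as 10 symbols (Mmd, Mmd2, Adipor1, Adipor2, Paqr3, Paqr4, Paqr5, Paqr7, Paqr8 and Paqr9). Each occurs once among the 35275 genes of the deposited expression table, which was not searched for further family members. The family was chosen by the FPKM of Mmd2, which was far lower in the inguinal fat of the knockout mice, so every inguinal comparison of knockout with control is given here as a description without a test, and so are the comparisons of Mmd2 between depots. The comparison in gonadal fat was not used in that choice.

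The family consists of membrane proteins that cross the membrane several times and whose adiponectin-binding members face the opposite way to G protein-coupled receptors. Adipor1 and Adipor2 encode the receptors of adiponectin, a hormone secreted by fat cells, and signal through AMP-activated kinase and PPARalpha, with ceramidase activity reported for both. Paqr5, Paqr7, Paqr8 and Paqr9 encode membrane progestin receptors, Paqr3 a Golgi protein that holds Raf kinases away from the plasma membrane, and Mmd and Mmd2 a pair of closely related proteins, named after monocyte to macrophage differentiation, that are known as Golgi-resident regulators of Ras signalling.

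RNA came from 2 white depots, the gonadal and the inguinal pads, of mice with adipose-restricted deletion of FoxO1 and of mice carrying the floxed, intact gene as controls. The 24 libraries fell into 4 groups of 6, and their names carry 6 mouse numbers, M5, M9 and M12 for knockouts and M6, M7 and M10 for controls, with 2 libraries from each pad. The mouse was the replicate (n = 3 per group) and its 2 libraries were averaged, giving 12 pads. The sources used here do not name the Cre driver, the age or sex of the mice or whether they were littermates, so p-values measure the spread between these mice only. Levels are in FPKM, which scales reads by gene length and by the reads that the library has in genes. These totals were 14953657 to 25438811 reads per library.

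Knockout and control pads did not overlap in Foxo1, the deleted gene, at 4.01 to 4.46 against 7.87 to 13.6 FPKM in gonadal fat and 2.49 to 5.69 against 13.0 to 19.7 FPKM in inguinal fat. The sources used here do not name the deleted exons, so remaining exons and cells that keep the gene can contribute reads. All 6 fat cell markers (Adipoq, Plin1, Cidec, Lep, Fabp4 and Plin4) were present in all 12 pads. In gonadal fat their summed level was 6618 to 7288 FPKM in controls and 8813 to 13192 FPKM in knockouts, and red blood cell markers summed to 4222 to 13579 against 1611 to 4180 FPKM. In inguinal fat, neutrophil markers summed to 53.3 to 90.2 FPKM in controls and 11.9 to 17.9 FPKM in knockouts. Most of that sum in controls was a single gene, Prtn3, at 43.3 to 68.8 FPKM against 3.86 to 5.92 FPKM in knockouts. Macrophage markers there summed to 360.4 to 817 against 168 to 366 FPKM. Fibroblast markers there were 348 to 448 against 241 to 301 FPKM, and red blood cell markers 3059 to 10521 against 2297 to 2558 FPKM. Control M7 had the lowest Mmd2 of the controls in both depots. It also had the lowest Foxo1 and the lowest sums of red blood cell, B cell and epithelial markers of the controls in both depots. Its fat cell and macrophage sums did not keep that place in both depots. Epididymal transcripts, from 8 markers, summed to 2235, 483 and 3196 FPKM in the gonadal pads of M12, M6 and M10 and to at most 1.38 FPKM in the other 9 pads. The part of these marker differences in the levels of the members was not tested. In whole pads, fewer cells of a type and less RNA per cell cannot be told apart.

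Mmd2 was the member that differed most between genotypes in gonadal fat. The gene (ENSMUSG00000039533) lies on the minus strand of chromosome 5 at 142562365 to 142608800 in mm10, and its coding transcript has 7 exons. The stretch around its start is printed here because the series was made to find genes under FoxO1 control, beside the same stretch of Adipor2, a member with a match to a forkhead motif. The sequences are RefSeq's for GRCm38.p6, the assembly of mm10, each 300 bases long and read 5′ to 3′ on the gene's strand from upstream of the start into the transcript. Capitals mark a match to GTAAACA or GTAAATA, forkhead core motifs searched on both strands.
Mmd2, chr5:142608703-142609002, minus strand: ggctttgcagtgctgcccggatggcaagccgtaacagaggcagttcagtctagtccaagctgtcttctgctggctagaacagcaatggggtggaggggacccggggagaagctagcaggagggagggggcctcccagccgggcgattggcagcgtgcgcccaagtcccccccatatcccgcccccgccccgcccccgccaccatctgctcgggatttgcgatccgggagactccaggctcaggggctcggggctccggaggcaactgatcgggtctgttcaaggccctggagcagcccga
Adipor2, chr6:119388685-119388984, minus strand: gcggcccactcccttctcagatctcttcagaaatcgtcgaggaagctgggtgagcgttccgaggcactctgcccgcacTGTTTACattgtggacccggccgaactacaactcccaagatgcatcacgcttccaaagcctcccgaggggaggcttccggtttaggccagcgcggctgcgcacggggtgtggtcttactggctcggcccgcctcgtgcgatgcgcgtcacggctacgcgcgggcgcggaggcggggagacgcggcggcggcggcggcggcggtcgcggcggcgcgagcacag
The Mmd2 stretch holds neither motif and has a GC content of 67%, higher than 85.5% of such stretches. That content was not particular to Mmd2, since the stretches of other members ran from 47.7% to 76.7%, with 68.7% for Adipor2. The Adipor2 stretch lies at a start inside the gene, next to that of transcript Adipor2-202 at 119388686, and not at the outermost annotated start at 119417704. It holds GTAAACA on the opposite strand, read as TGTTTAC, at position -172 from the RefSeq start of that stretch. GTAAACA occurs in 3.66% and GTAAATA in 3.04% of 32544 promoter stretches of this length, and 6.55% hold at least one of them. Of the 12 stretches listed for 9 members, a second start of Adipor1 and a second start of Paqr8 also hold GTAAACA, and the other 9 hold neither motif.

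Gonadal Mmd2 levels were 13.9 FPKM in control mouse M6, 3.10 FPKM in M7 and 10.95 FPKM in M10. The knockout mice had 0.435 FPKM in M5, 0.757 FPKM in M9 and 0.594 FPKM in M12. All knockout pads lay below all control pads, and M7 was the lowest control. These levels rest on 441 to 2129 reads per control pad and 59 to 115 reads per knockout pad, both libraries summed. The knockout mean was 0.595 ± 0.161 FPKM and the control mean 9.31 ± 5.58 FPKM (SD, n = 3), so knockouts held 6.39% of the control level. On the scale of log2(FPKM + 0.5) the difference was -2.95 (SE 0.52, 95% interval -4.23 to -1.67), the 6th lowest among the 14851 genes tested.

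The limma test across all genes did not call Mmd2 in gonadal fat (adjusted p = 0.407), nor any other gene. The genes called made up 0.0% of those tested. At an unadjusted p under 0.05 limma had 1291 genes (8.69%), among them 1 member, Mmd2. For 7.54% of genes every knockout pad lay below every control pad. The exact two-sided permutation test over the 20 regroupings of the 6 mice gave p = 0.1 for Mmd2, the smallest it allows. DESeq2 on the rebuilt reads gave an adjusted p of 9.35e-10 and called 310 genes, and edgeR's quasi-likelihood test gave 0.439 and called 0. Over the 16 alternatives run, the log2 difference of Mmd2 ranged from -3.94 to -1.73 and its adjusted p from 9.35e-10 to 0.95. The smallest difference came from leaving out the 3 gonadal pads with epididymal transcripts, which kept control M7 at 3.10 FPKM against knockouts M5 and M9. In the authors' deposited table for gonadal fat, which lists 1808 genes, Mmd2 had a log2 fold change of -2.48 and an adjusted p of 1.05e-21, rank 5 by p. The authors' tables carry 6 library columns per group, 2 from each mouse, whereas limma here had the mouse as the replicate. Their p-values may thus count libraries as replicates and are not a like measure to those of limma.

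In inguinal fat, Mmd2 reached 60.8 FPKM in control mouse M6, 34.0 FPKM in M7 and 70.4 FPKM in M10. The knockout mice had 1.99 FPKM in M5, 2.002 FPKM in M9 and 1.85 FPKM in M12. M7 was again the lowest control, and the knockout pads lay close together, far below the controls. The means were 55.1 ± 18.9 FPKM in controls and 1.95 ± 0.0859 FPKM in knockouts (SD, n = 3), or 3.54% of control. This is the contrast that brought the family into view, and its log2 difference of -4.44 (SE 0.27) is given without a test. Across the table, 3 of 13621 genes (0.022%) were called there. In the authors' deposited table for inguinal fat, which lists 2220 genes, Mmd2 had a log2 fold change of -4.18.

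**Figure D1:**
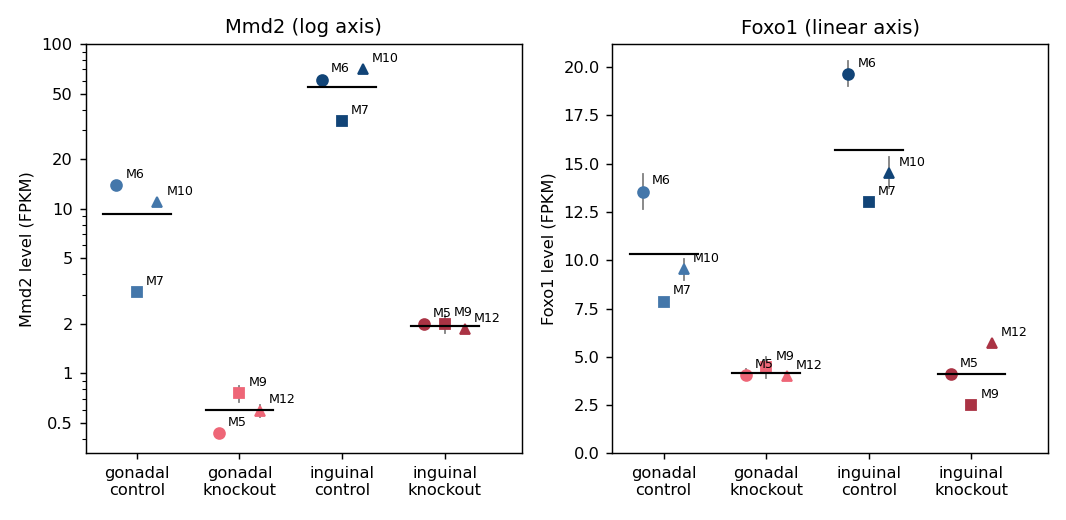
Mmd2 (left, log axis) and Foxo1 (right, linear axis) in FPKM by group. Each point is a pad, the mean of its 2 libraries, with a grey line joining those libraries and the mouse number beside it, and black bars are group means (n = 3). For Mmd2 no group overlaps another, and mouse M7 is the lowest control in both depots.

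The order of Mmd2 levels was inguinal control, gonadal control, inguinal knockout and gonadal knockout, and no neighbouring groups in that order overlapped. Inguinal pads held 5.91 times the gonadal level in controls, a log2 difference of 2.66 (SE 0.56). In knockouts they held 3.27 times as much, a log2 difference of 1.17 (SE 0.16), which depends on the pseudocount since the levels are low (1.58 with 0.1 FPKM added). Within single mice the inguinal to gonadal ratio was 4.38 in M6, 10.97 in M7 and 6.42 in M10 among controls. It was 4.58 in M5, 2.65 in M9 and 3.11 in M12 among knockouts. The ratio was above 1 in all 6 mice and the genotypes' ratios overlapped. The knockout difference was lower in inguinal than in gonadal fat by a log2 value of -1.49 (SE 0.63), which became -0.76 with edgeR on reads and -2.71 without the pads holding epididymal transcripts.

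Of the 7 genes within 200 kb of Mmd2 (Foxk1, Ap5z1, Radil, Papolb, Wipi2, Slc29a4 and Tnrc18), none was called in gonadal fat, where their log2 differences ran from -0.19 to 0.57. The upstream neighbour Wipi2, an autophagy gene, was 16.3 ± 1.51 FPKM in gonadal control and 16.3 ± 1.26 FPKM in gonadal knockout fat (SD, n = 3). Radil, on the other side, was 0.945 and 0.905 FPKM. In inguinal fat, the lowest difference of a tested neighbour was that of Tnrc18, at -0.55 (SE 0.16).

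Mmd, the close relative of Mmd2, was the most abundant member in all 4 groups. Its gene (ENSMUSG00000003948) spans 90187684 to 90278589 of chromosome 11, plus strand. Gonadal pads held 246 FPKM in M6, 177 FPKM in M7 and 192 FPKM in M10 among controls, and 200.3 FPKM in M5, 349 FPKM in M9 and 274 FPKM in M12 among knockouts. The groups overlapped, and the log2 difference of 0.40 (SE 0.23, limma adjusted p = 0.708) was not called. In inguinal fat all 6 pads lay between 499.6 and 578 FPKM, with a difference of -0.09 (SE 0.10). Mmd made up 54.9% of the summed FPKM of the 10 members in gonadal control fat and 63.1% in inguinal control fat. Mmd2 made up 2.42% and 6.28% there, and 0.131% and 0.235% in the knockouts.

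**Figure D2:**
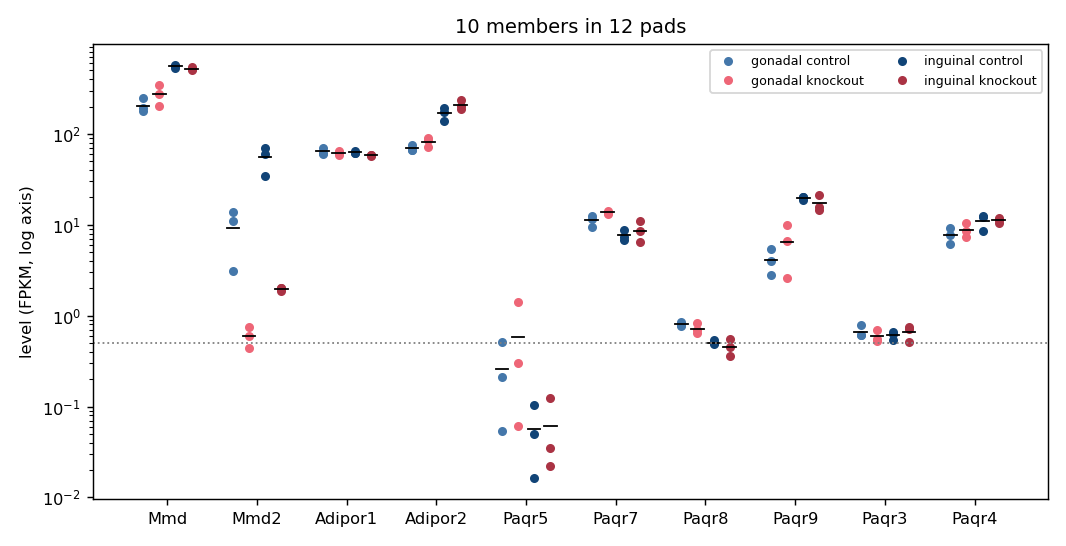
Levels of the 10 members in FPKM (log axis) in the 12 pads, ordered by role from the Mmd pair through adiponectin and progestin receptors to Paqr3 and Paqr4. Points are pads, black bars group means (n = 3) and the dotted line the 0.5 FPKM used as the minimum mean for testing. Mmd2 is the member whose knockout pads lie far under the controls in both depots, and Paqr5 stays near or under the line except in gonadal pad M12.

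The adiponectin receptors differed in how even their levels were. Adipor1 (chromosome 1, 134415378 to 134433351) was even, at 57.8 to 69.8 FPKM over all 12 pads, with a gonadal knockout difference of -0.05 (SE 0.08, limma adjusted p = 0.919). In inguinal fat its 3 knockout pads (57.8 to 58.4 FPKM) lay just below its 3 controls (60.9 to 64.2 FPKM), a difference of -0.10 (SE 0.06) that was 0.02 after rescaling with TMM factors. For 17.3% of genes in that contrast every knockout pad lay below every control pad, and the median of all genes was -0.10 as deposited and 0.01 after rescaling.

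Adipor2 (chromosome 6, 119353150 to 119417704) was 75.0, 66.7 and 65.8 FPKM in the gonadal pads of controls M6, M7 and M10. It was 72.5, 89.6 and 84.9 FPKM in those of knockouts M5, M9 and M12. Knockout M5 fell within the control range and the other 2 knockouts lay above it. The log2 difference of 0.25 (SE 0.11, limma adjusted p = 0.595) was not called, and over the alternatives its adjusted p was 0.0546 to 0.994. In inguinal fat Adipor2 was 208 ± 22.8 FPKM in knockouts and 168 ± 27.0 FPKM in controls (SD, n = 3), with overlapping pads and a difference of 0.31 (SE 0.15). The authors' deposited tables list Adipor2 at log2 fold changes of 0.27 in gonadal fat, with an adjusted p of 0.0123, and 0.38 in inguinal fat. As for Mmd2, that p may count libraries as replicates.

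Among the membrane progestin receptors, Paqr7, the alpha receptor (chromosome 4, 134496697 to 134510235), was the one whose gonadal groups did not overlap. Controls M6, M7 and M10 had 12.6, 11.7 and 9.38 FPKM, and knockouts M5, M9 and M12 had 13.6, 14.3 and 13.2 FPKM. Knockouts were higher by 0.28 (SE 0.12), which limma did not call (adjusted p = 0.580, and 0.0550 to 0.994 over the alternatives), and 6.79% of all genes had every knockout pad above every control pad. The authors' deposited table lists Paqr7 at 0.29 with an adjusted p of 0.0302, which may likewise count libraries as replicates. In inguinal fat the pads overlapped, at 6.84 to 8.84 FPKM in controls and 6.49 to 10.9 FPKM in knockouts.

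Paqr9, the epsilon receptor (chromosome 9, 95559657 to 95568023, a single exon), ranged from 2.62 FPKM in M5 to 9.998 FPKM in M9 among gonadal knockout pads and from 2.80 to 5.43 FPKM among controls. Knockout M5 was the lowest of the 6 pads and M9 the highest, so the difference of 0.47 (SE 0.47, limma adjusted p = 0.845) was no larger than its error. In inguinal fat controls had 19.7 ± 0.938 FPKM and knockouts 17.3 ± 3.70 FPKM (SD, n = 3).

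Paqr8, the beta receptor (chromosome 1, 20890606 to 20939650), was low, at 0.801 FPKM in gonadal control and 0.718 FPKM in gonadal knockout fat (difference -0.10, SE 0.16, limma adjusted p = 0.923). Its mean in inguinal fat was under the 0.5 FPKM minimum, so the inguinal fit left it out. Paqr5, the gamma receptor (chromosome 9, 61953481 to 62026856), passed the minimum in no fit. It was 1.40 FPKM in the gonadal pad of knockout M12 (199 reads, 1.71 and 1.10 FPKM in its 2 libraries), 0.511 FPKM in that of control M6 and 0.302 FPKM or less in the other 4. M12 and M6 are 2 of the 3 pads with epididymal transcripts, and the third, M10, had 0.211 FPKM. The part of those transcripts in the Paqr5 level was not tested. Inguinal pads held 2 to 17 Paqr5 reads each, fewer FPKM than the gonadal pad of the same mouse in all 6 mice.

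Paqr3 (chromosome 5, 97082329 to 97111596) was near the minimum in all groups, at 0.591 to 0.667 FPKM on average, with a gonadal difference of -0.10 (SE 0.18, limma adjusted p = 0.931). Paqr4 (chromosome 17, 23736186 to 23740330) was 7.68 FPKM in gonadal control and 8.76 FPKM in gonadal knockout fat, a difference of 0.18 (SE 0.19, limma adjusted p = 0.845). Their inguinal differences were 0.06 (SE 0.15) and 0.04 (SE 0.16). Paqr3 overlaps Bmp2k and Paqr4 overlaps Pkmyt1 on the opposite strand. The sources used here do not say whether counting used strand, so reads from where these pairs overlap cannot be told apart. Over the 9 members tested in gonadal fat, 5 were higher and 4 lower in knockouts, with a median log2 difference of 0.18 against -0.02 for all genes tested. In inguinal fat 4 of 8 were higher and 4 lower, with a median of -0.03 against -0.10.

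**Figure D3:**
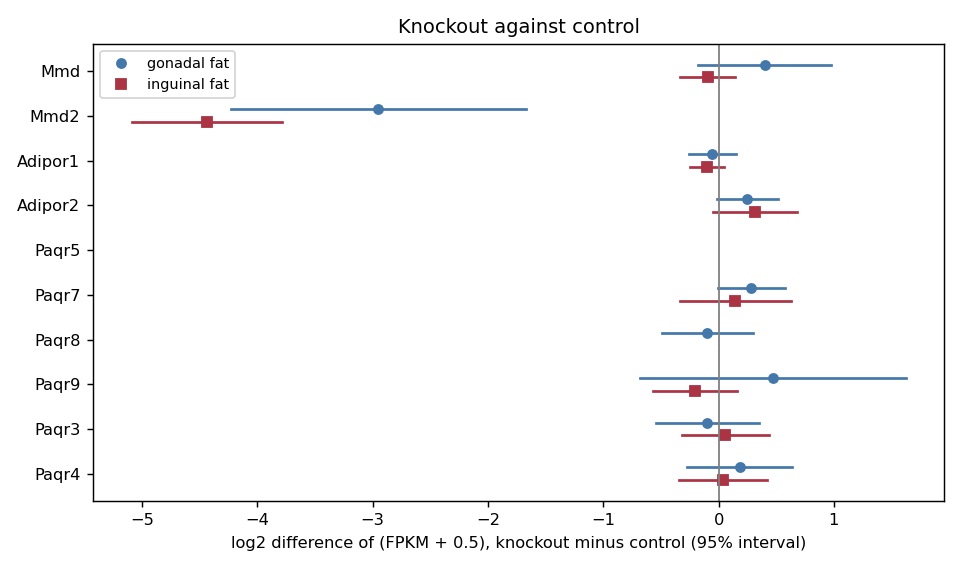
Knockout minus control differences of log2(FPKM + 0.5) for each member that passed the level minimum, in gonadal (circles) and inguinal fat (squares), with 95% intervals from limma (3 mice per group). The intervals of Mmd2 in both depots lie below 0 and those of all other members drawn include 0, and the inguinal values are a description because they chose the family.

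Between the depots of control mice, Mmd, Adipor2 and Paqr9 were higher in inguinal fat and Paqr7 was lower. Limma called 4 of the 8 members tested other than Mmd2, 3 higher and 1 lower. Over all 14505 genes 41.4% were called, 14.5% higher and 26.9% lower, so a call between depots was common. Without control M10 the calls over all genes numbered 1534 of 14239, against 6010. The largest of the tested member differences was that of Paqr9, at 20.1, 18.6 and 20.4 FPKM in the inguinal and 5.43, 2.80 and 3.97 FPKM in the gonadal pads of M6, M7 and M10. Every inguinal pad lay above every gonadal pad, as for 20.2% of all genes, 4.85-fold on average (log2 difference 2.19, SE 0.21, limma adjusted p = 0.00103). Mmd was 2.71-fold higher in inguinal fat (1.45, SE 0.15, adjusted p = 0.00133) and Adipor2 2.43-fold higher (1.27, SE 0.14, adjusted p = 0.00160). All 14 alternatives called these 3 members.

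Adipor1 was not called between the depots of control mice, with -0.04 (SE 0.09, limma adjusted p = 0.757) as deposited and 0.14 after rescaling with TMM factors, which turned its sign. Paqr7 was 68.0% of its gonadal level in inguinal fat (-0.52, SE 0.15, limma adjusted p = 0.0343), with every inguinal pad below every gonadal pad, as for 38.7% of all genes. That call was lost after rescaling with TMM factors (-0.36, adjusted p = 0.0966), with edgeR and with DESeq2, and without any one of the 3 mice. Rescaling moved the median of all genes from -0.18 to -0.03 and the calls over all genes from 2106 higher and 3904 lower to 2882 and 3123. The rescaled differences were 1.62 for Mmd, 1.44 for Adipor2 and 2.34 for Paqr9. Paqr4 (0.50, SE 0.20, limma adjusted p = 0.0931) and Paqr8 (-0.37, SE 0.16, adjusted p = 0.110) were not called. With the mouse as a block, which pairs its 2 pads, limma called Paqr4 (0.50, SE 0.11, adjusted p = 0.0335).

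The depots also differ in cell content, with summed macrophage markers of 6531 to 11932 FPKM in gonadal and 360.4 to 817 FPKM in inguinal control pads. Fat cell markers summed to 6618 to 7288 FPKM there and 15160 to 25754 FPKM. The part of cell content in the depot differences of the members was not tested.

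The same 4 of 8 members were called between the depots of knockout mice, beside 47.8% of all 14593 genes (12.7% higher, 35.1% lower). Calls over all genes fell from 6971 to 3047 without M5 and to 4138 without M9. Adipor2 was 2.53-fold higher in inguinal fat (log2 difference 1.33, SE 0.12, limma adjusted p = 0.000679) and kept its call in all 14 alternatives. Mmd was 1.90-fold higher (0.96, SE 0.20, adjusted p = 0.0115), a call lost without M5 (0.75, adjusted p = 0.0519) or M12 (1.01, adjusted p = 0.0601). Paqr9 was 2.70-fold higher (1.51, SE 0.45, adjusted p = 0.0344), a call lost without any one of the 3 knockout mice (1.13 to 1.74). Gonadal pad M9, at 9.998 FPKM, was the closest of the gonadal pads to the inguinal range of 14.6 to 21.5 FPKM. Paqr7 was at 63.0% of its gonadal level (-0.66, SE 0.18, adjusted p = 0.0249), a call again lost after rescaling with TMM factors (-0.40, adjusted p = 0.159), with edgeR or DESeq2, and without M5 or M12. Paqr4 was not called on the deposited scale (0.35, SE 0.13, adjusted p = 0.0742) and was called in 6 of the 14 alternatives, among them TMM rescaling (0.62, adjusted p = 0.0149), edgeR (0.61, adjusted p = 0.0166) and DESeq2 (0.65, adjusted p = 0.00113). Adipor1 was not called (-0.09, SE 0.06, limma adjusted p = 0.306), but limma with each library as a replicate called it lower (-0.09, adjusted p = 0.0495) and DESeq2 called it higher (0.20, adjusted p = 0.0473). Rescaling moved the median of all genes from -0.27 to -0.03 and the calls from 1849 higher and 5122 lower to 3066 and 3070.

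**Figure D4:**
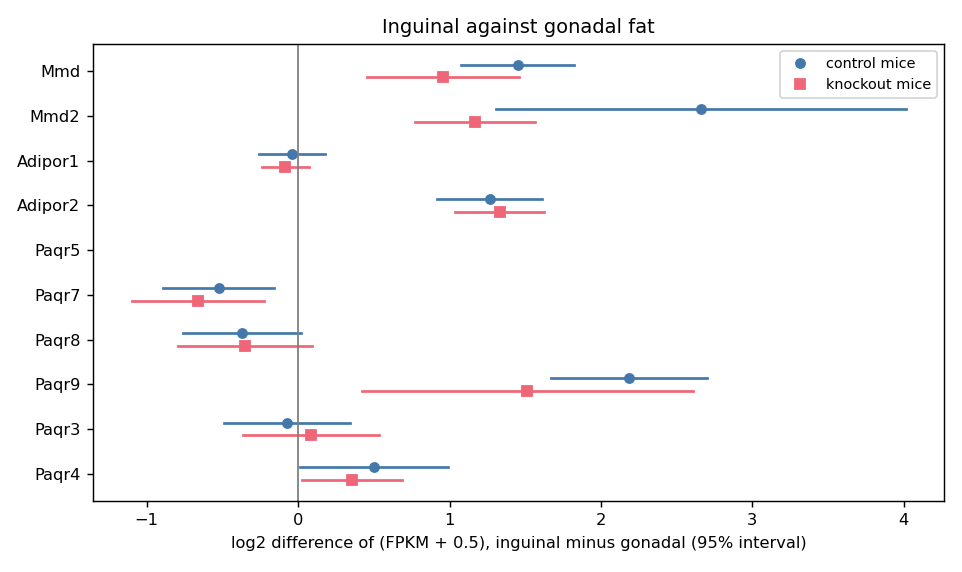
Inguinal minus gonadal differences of log2(FPKM + 0.5) for each member that passed the level minimum, in control (circles) and knockout mice (squares), with 95% intervals from limma (3 mice per group). The intervals, which are not adjusted for the number of genes, lie above 0 for Mmd, Mmd2, Adipor2, Paqr4 and Paqr9 and below 0 for Paqr7 in both genotypes, and include 0 for Adipor1, Paqr3 and Paqr8. The values of Mmd2 are a description.

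Whether the knockout difference itself varied between depots was tested as an interaction over all 4 groups. Limma called 0 of 14577 genes (0.0%), with 725 (4.97%) at an unadjusted p under 0.05, edgeR called 0 and DESeq2 called 16, none of them a member. For members other than Mmd2 the interaction ran from -0.67 (SE 0.53) for Paqr9 to 0.16 (SE 0.22) for Paqr3, and each interval included 0. For Adipor2 it was 0.07 (95% interval -0.36 to 0.49) and for Mmd -0.49 (95% interval -1.08 to 0.09).

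Across the 12 pads, the correlation of Mmd2 with the other tested members, of log2(FPKM + 0.5), ran from -0.59 with Paqr7 to 0.417 with Paqr9. Mmd and Paqr9 had a correlation of 0.985, Mmd and Adipor2 of 0.945, and Adipor2 and Paqr8 of -0.915. These are descriptions over 12 pads that share 6 mice and 2 depots, and Mmd, Adipor2 and Paqr9 were all higher in the inguinal depot.

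The genes most like Mmd2 over the 12 pads, among 12149 with a mean of at least 1 FPKM, were Tmem260 (r = 0.982), Ggt5 (0.972), Akr1cl (0.969), Ttpa (0.958), Npy1r (0.955), Mc2r (0.954), Nnat (0.946), Slc26a2 (0.945), Oxtr (0.942) and Mgl2 (0.933). Several spanned a narrow range, and Tmem260 lay between 4.90 and 7.09 FPKM in all pads. Akr1cl, an aldo-keto reductase, spanned a range nearer to that of Mmd2, at 122 FPKM in inguinal control, 21.7 FPKM in gonadal control, 1.43 FPKM in inguinal knockout and 1.36 FPKM in gonadal knockout fat. Oxtr, the oxytocin receptor, was at 137, 73.9, 14.3 and 12.1 FPKM in the same order. Nnat, the imprinted gene of neuronatin, was at 1357, 485, 363 and 150 FPKM. Npy1r and Mc2r, receptors of neuropeptide Y and of corticotropin, were at 1.86 and 15.6 FPKM in inguinal control fat and at 0.789 and 6.58 FPKM in inguinal knockout fat. The likeness includes the inguinal contrast that chose Mmd2, and the pads share mice. Ranked by Spearman correlation, 5 of the 10 genes stayed in the list, and 2 did so over the 6 inguinal pads alone.

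**Figure D5:**
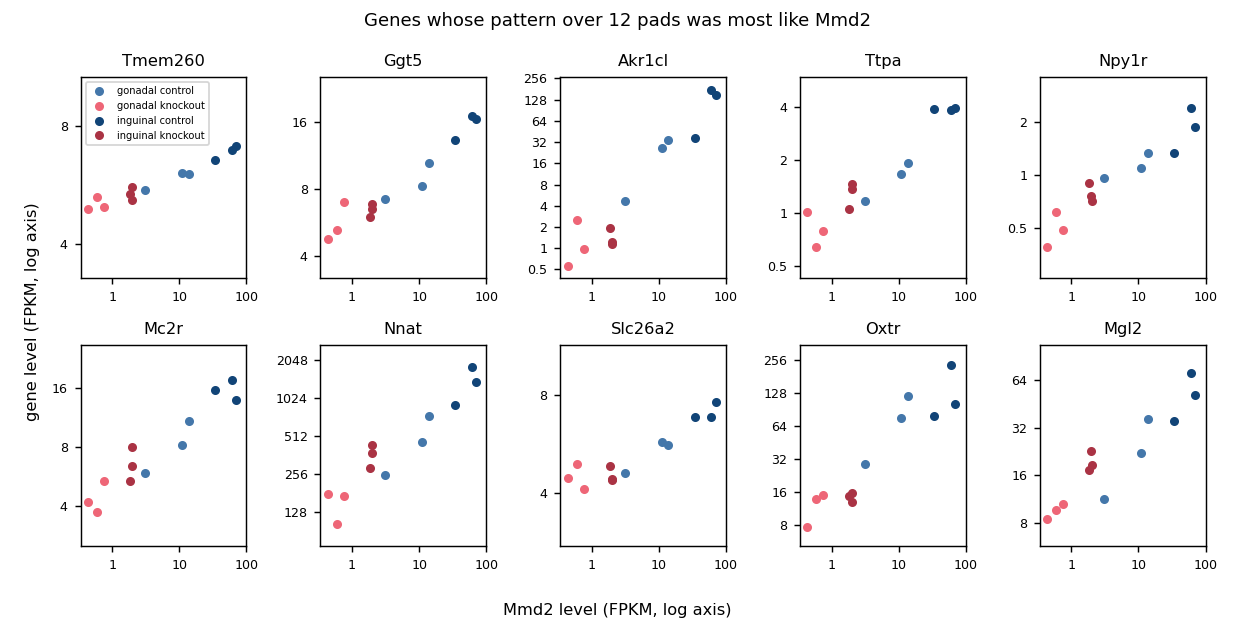
Level of each of the 10 genes most like Mmd2 (vertical, FPKM, log axis) against Mmd2 (horizontal, FPKM, log axis). Points are the 12 pads, coloured by group, and vertical scales differ between panels. Akr1cl and Oxtr drop from control to knockout over a wide range, whereas Tmem260 and Slc26a2 move little in FPKM.

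Among the other members, the gene most alike over the 12 pads was Fgfrl1 for Mmd (r = 0.992), Ghitm for Adipor2 (0.997), Tmem205 for Paqr9 (0.989) and Atoh8 for Adipor1 (0.936). It was Ppp2r1a for Paqr7 (0.932), Tmem109 for Paqr4 (0.929) and Chst10 for Paqr3 (0.897). Mmd itself was the third gene for Paqr9. Ghitm, a mitochondrial inner membrane protein gene, was at 90.2 FPKM in gonadal control and 185 FPKM in inguinal control fat, beside 69.2 and 168 FPKM for Adipor2.

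Genes around the adiponectin receptors were read from a list of 20 genes of adiponectin and its signalling. In gonadal fat, limma and edgeR called 0 of the 19 tested and DESeq2 called 1, beside 310 of all 14851 genes with DESeq2. At an unadjusted p under 0.05 limma had 2 of the 19, beside 8.69% of all genes. The median difference was 0.02. Acaca, the acetyl-CoA carboxylase that AMP-activated kinase inhibits, was 44.4 ± 13.0 FPKM in knockouts and 23.7 ± 3.84 FPKM in controls (SD, n = 3; difference 0.86, SE 0.24, limma adjusted p = 0.456). Adipoq, the ligand itself, was 826 FPKM in gonadal knockout and 735 FPKM in gonadal control fat, with overlapping pads. Between the depots of control mice limma called 6 of 20 higher and 2 lower in inguinal fat, beside 14.5% and 26.9% of all genes. After rescaling with TMM factors it called 10 and 2, beside 2882 and 3123 of 14438 genes. On the deposited scale 13 were higher and 7 lower in sign, with a median difference of 0.24 against -0.18 for all genes. Adipoq was at 2134 ± 88.5 against 735 ± 182 FPKM (SD, n = 3; difference 1.56, SE 0.22, limma adjusted p = 0.00296), and Prkaa2, a catalytic subunit of AMP-activated kinase, at 2.32 against 0.713 FPKM (1.22, SE 0.16, adjusted p = 0.00255).

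A list of 14 genes of ceramide turnover, the activity reported for the adiponectin receptors, had 0 calls among 13 tested in gonadal fat by limma, edgeR and DESeq2. At an unadjusted p under 0.05 by limma there was 1 of the 13, Cers4, beside 8.69% of all genes. Between the depots of control mice limma called 8 of 13 lower in inguinal fat and 1 higher, beside 26.9% and 14.5% of all genes. After rescaling with TMM factors it called 7 lower and 2 higher, beside 3123 and 2882 of 14438 genes. On the deposited scale 11 were lower and 2 higher in sign, with a median difference of -0.68 against -0.18 for all genes. Asah1, the lysosomal acid ceramidase, was 33.7 ± 4.07 FPKM in inguinal and 76.4 ± 6.50 FPKM in gonadal control fat (SD, n = 3; difference -1.17, SE 0.12, limma adjusted p = 0.00127). Acer3, an alkaline ceramidase, differed by -1.70 (SE 0.13, adjusted p = 0.000573) and its relative Acer2 by 1.71 (SE 0.24, adjusted p = 0.00278). Macrophage markers, given above, were also higher in gonadal fat, and their part in the levels of this list was not tested.

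Of 9 genes of progestin binding and response, 8 were tested in gonadal fat and 0 were called by limma, edgeR or DESeq2, with 0 at an unadjusted p under 0.05. Pgr, the nuclear progesterone receptor, was low in gonadal fat, at 0.216 FPKM in controls and 0.0347 FPKM in knockouts, under the minimum. In inguinal fat it was 2.74, 1.12 and 2.23 FPKM in controls M6, M7 and M10 and at most 0.0995 FPKM in the 3 knockouts. Mouse M7 was the lowest inguinal control for Pgr as for Mmd2. In gonadal fat the lowest control for Pgr was M10, at 0.0917 FPKM against 0.217 FPKM in M7. The inguinal difference of Pgr was -2.06 (SE 0.28), given as a description. Between the depots of control mice limma called 4 of 9 higher in inguinal fat and 1 lower, beside 14.5% and 26.9% of all genes. Pgr was among the 4, and it passed the minimum only through its inguinal level (2.03 against 0.216 FPKM). In sign 6 were higher and 3 lower, with a median difference of 0.10. Pgrmc2, a membrane-associated progesterone-binding protein gene, was at 84.9 against 44.8 FPKM (0.91, SE 0.12, limma adjusted p = 0.00217). Fkbp5, a co-chaperone of steroid receptors, was the one called lower, at 8.06 against 19.7 FPKM (-1.25, SE 0.18, adjusted p = 0.00341).

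Partners of Paqr3, which holds Raf kinases and the SREBP escort protein at the Golgi, were read from 14 genes, all tested. In gonadal fat 0 were called by limma, edgeR and DESeq2. At an unadjusted p under 0.05 limma had 1 of the 14, Srebf1, beside 8.69% of all genes. Srebf1 was 93.1 ± 21.7 FPKM in knockouts and 61.9 ± 4.22 FPKM in controls (SD, n = 3, difference 0.56, SE 0.19, limma adjusted p = 0.512). Between the depots of control mice limma called 3 of 14 higher and 4 lower in inguinal fat, beside 14.5% and 26.9% of all genes. After rescaling with TMM factors it called 4 and 1, beside 2882 and 3123 of 14438 genes. On the deposited scale 5 were higher and 9 lower in sign, with a median difference of -0.10. Insig1, the sterol-dependent retention protein of SREBP, was at 219.8 ± 95.5 against 48.2 ± 14.6 FPKM (SD, n = 3; difference 2.14, SE 0.36, limma adjusted p = 0.00546).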

How the data were processed

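Per the labels' protocols, RNA came from a Qiagen RNeasy kit and libraries from a NEBNext Ultra kit. CASAVA, STAR and mm10 are named in the submitters' processing notes. Per the file headers, the deposited series table holds FPKM of 35275 genes and 24 libraries. The authors' deposited comparison tables list changed genes with read counts, the group mean signal scaled by size factors, log2 fold changes and p-values, per the file headers. The sources used here name no counting tool. The 24 FPKM columns of the comparison tables repeat the series table and were not used.

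Columns were assigned to groups by name: f control and z knockout (the authors' knockout means are weighted means of the z columns), e gonadal and s inguinal. What these letters mean was inferred. The 2 libraries of a pad correlated at r = 0.991 to 0.996 and pads of different mice of a group at 0.897 to 0.985, and 24 of 24 libraries were most like their partner, so each mouse counted once.

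Genes with a mean of at least 0.5 FPKM were tested with limma 3.58.1 (R 4.3.3; two-sided, with a mean-variance trend) on log2(FPKM + 0.5), a scale that understates the change of low genes. Benjamini-Hochberg adjustment ran over all genes tested, with a threshold of 0.05. FPKM times gene length times library total came out as whole reads for 100% of values (tolerance 0.001 reads). These were summed per pad and tested with edgeR 4.0.16 (quasi-likelihood, TMM) and DESeq2 1.42.0 as alternatives. The tests were tested on simulated data, where DESeq2 called more unchanged genes than limma or edgeR did. Those reads were drawn gene by gene with dispersions that edgeR estimated, so shifts shared by many genes, as from cell content, were absent. The simulation therefore does not decide between the tools for these pads. The members and lists were chosen with earlier results of these data known.

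Text names the members, Foxo1, the 10 genes of highest Pearson correlation with Mmd2 over 12 pads (for other members the 3 highest, here mostly the first, and not all are reported here), genes within 200 kb of Mmd2, and from each list genes among the 4 of smallest p. The gonadal levels of Adipoq, the levels of Pgr per pad and the inguinal levels of Prtn3 were added after their values were seen. All 130 list genes were found, 1 under another symbol. Gene positions are those of the table, exon counts are from GENCODE M21, and promoters were matched by symbol for 9 of the 10 members. The 2 pads of a mouse carry its number, which pairs them in the depot comparisons; their deviations from group means correlated at -0.0954 to 0.136. Alternatives were other pseudocounts, level minima, scalings, tools and replicate units, a block for the mouse, and each mouse left out. Leaving out gonadal pads with over 100 FPKM of epididymal markers was added after seeing the data.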

Additional observations from a re-analysis of the deposited data

How the results depend on the processing

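With 3 mice per group, DESeq2 and limma with each library as a replicate called 1 member, Mmd2, in gonadal knockout fat, where the other alternatives called 0. They called 310 and 1125 genes there against 0, and leaving out control M10 gave 1. In inguinal knockout fat, the contrast that chose the family, Mmd2 is a description and calls of members are not counted. With each mouse left out, the log2 difference of Mmd2 stayed between -4.75 and -4.23. Genes called there were 3, against 2189 with each library, 661 with DESeq2, 112 with all 4 groups in one fit and 0 to 78 with each mouse left out. Between depots, the members called, Mmd2 included, were 3 to 4 (controls) and 2 to 4 (knockouts) with each mouse left out. With each library in knockouts, 8 members were called, beside 9777 of 14593 genes. Mmd2 in these counts is a description. Genes called between depots fell to 1534 of 14239 without M10, 3047 of 14780 without M5 and 4138 of 14817 without M9. In controls they numbered 9100 of 14505 with each library and 2358 of 14038 without the pads holding epididymal transcripts. The interaction had 265 calls with each library and 16 with DESeq2. With the replicate block for the mouse, 6 members were called between depots in controls (Paqr4 added, 0.50), beside 5092 of 14505 genes. In knockouts 5 were called, beside 6365 of 14593 genes, and in the interaction 0, beside 0 of 14577 genes. With this block no other call of a member changed. With all 4 groups in one fit, or with each library, limma also called Paqr4 and Paqr8 between the depots of controls, beside 7175 and 9100 of 14505 genes. Without the pads holding epididymal transcripts, limma lost Paqr7 in controls (adjusted p = 0.129) and knockouts (0.0514), and Paqr9 in knockouts (0.0590). With no level minimum, limma lost Paqr7 in controls (adjusted p = 0.0554) and Paqr9 in knockouts (0.0607).

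Signs turned for small differences. Between the depots of controls, Adipor1 was 0.135 with TMM, 0.133 with edgeR, 0.154 with DESeq2, 0.0396 without epididymal pads and -0.0746 to 0.0032 with each mouse left out, and Paqr3 was 0.0238, 0.0323 and 0.0525 with the first 3 settings. With these 3 settings Adipor1 was 0.187, 0.157 and 0.196 between the depots of knockouts and 0.0517, 0.0531 and 0.0386 in the interaction. With each mouse left out, Adipor1 ran from -0.0924 to 0.0078 in gonadal knockout fat. In the interaction, Paqr7 was 0.0039 with edgeR, and with each mouse left out Paqr7 ran from -0.283 to 0.0353, Adipor2 from -0.125 to 0.190 and Paqr4 from -0.292 to 0.0233. The lists of genes most like Mmd2 shared 5 (Spearman) and 2 (inguinal pads alone) genes with the 10 named. Levels under 1 FPKM (Paqr3, Paqr5, Paqr8, Mmd2 in gonadal knockouts) rest on few reads. The cause of these shifts was not tested.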
